A study of Mus musculus with 6 samples.

Results

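The 10 genes described here belong to the BCL2 family, the proteins that decide whether the outer mitochondrial membrane is breached during apoptosis. They are the pro-apoptotic genes Pmaip1, Bcl2l11, Bid and Bax and the anti-apoptotic genes Mcl1, Bcl2l1, Bcl2, Bcl2a1a, Bcl2a1b and Bcl2a1d, taken by symbol from the 41388 genes of the deposited tables. The family was selected on Pmaip1, which edgeR called higher in depolarized cells in these same libraries. That call is how the genes were found and not a result, so the difference of Pmaip1 is given as a description, with no p.

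Neutrophils from the bone marrow of C57BL/6 mice took up DiBAC4(3) at 250 nM, an anionic dye whose fluorescence grows as a cell depolarizes, and were then given 100 nM of the calcium ionophore ionomycin. Between 2 and 4 minutes later, 20000 depolarized cells and 20000 polarized cells were sorted directly into lysis buffer, and their RNA was copied into cDNA with a SMARTer kit for very small inputs. There were 3 depolarized and 3 polarized libraries, which the design text describes as 3 biological pairs, called A, B and C below. Both groups had received dye and ionophore, so neither is a resting control, and the labels give neither the age and sex nor the number of mice behind each library.

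In the intrinsic pathway, BAX and its relative BAK form pores in the outer mitochondrial membrane and release cytochrome c. Anti-apoptotic members hold these effectors and the BH3-only proteins in check, while BH3-only proteins occupy the binding groove of the anti-apoptotic members or activate the effectors directly. Neutrophils are short-lived cells that depend on MCL1, a protein with a rapid turnover, and they also make A1, the product of the Bcl2a1 genes. NOXA, the product of Pmaip1, binds MCL1 and A1.

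Total counts ran from 16904969 to 20381489 per library, and mitochondrial transcripts took 0.547% to 0.743% of them. Of 9971 genes that passed the filter on low counts, edgeR's quasi-likelihood test, with pair as a block, called 8 higher (0.0802%) and 24 lower (0.241%) in depolarized cells at a Benjamini-Hochberg adjusted p under 0.05. The summed level of 8 neutrophil markers, S100a8 and S100a9 among them, was 162000 to 181000 CPM, the count scaled to the library total, in depolarized libraries and 182000 to 222000 CPM in polarized ones, with 0 of 8 called. Most of that sum came from S100a8, S100a9 and Retnlg. The receptor gene Csf3r lay the other way, at 2265, 2403 and 2191 CPM in depolarized libraries and 1680, 1496 and 1518 CPM in polarized libraries A, B and C. As log2 values scaled with TMM factors, the 8 markers had a median difference of 0.06 in pair A, -0.24 in pair B and -0.67 in pair C. The 6 markers of granulocyte precursors (Mpo, Elane, Prtn3, Ctsg, Ms4a3 and Fcnb) were all called lower in depolarized cells. Their summed level was 1.62, 0.834 and 14.5 CPM in depolarized libraries A, B and C and 39.6, 87.1 and 330.0 CPM in polarized libraries A, B and C. Of these markers Fcnb was at 0 in depolarized library B. The summed markers of the 5 other cell types examined overlapped between the groups. For T or NK cells they did so only narrowly, at 15.0 to 21.2 CPM in depolarized and 21.1 to 26.7 CPM in polarized libraries. The eosinophil genes did not move together, with 0 called. Epx was lower in depolarized cells in all 3 pairs, Siglecf and Ccr3 were higher in all 3, and Prg2 was higher in 1. Il5ra, which did not pass the filter, had 2, 12 and 5 counts in depolarized libraries A, B and C and 0 in every polarized library. Within the monocyte or macrophage list, however, 4 of 6 tested genes (Ly6c2, Ccr2, C1qa and C1qb) lay wholly lower and 1 (Csf1r) wholly higher in depolarized libraries, with 0 called. By CPM scaled with TMM factors, 4.54% of all tested genes lay wholly lower and 4.59% wholly higher. Of the genes of these 5 lists 1 was called, Nkg7, which had 14 counts over the depolarized and 317 over the polarized libraries. The other tested gene of the T or NK list, Cd3d, was fitted at a log2 fold change of 0.00. Cd3e and Klrb1c did not pass the filter on low counts, so no difference in T or NK cells is read from Nkg7. The part of these differences in the results below was not tested. In bulk RNA, fewer cells of a type and less RNA per cell cannot be told apart. Depolarized library B alone carries a run label of 1 in place of 2, and run and library cannot be told apart there.

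All 10 family members passed the filter. Of them 1, Pmaip1, was called higher and 0 were called lower, set beside the 0.0802% and 0.241% of all tested genes. Since Pmaip1 chose the family, nothing is read from that count. Of the 9 others, 0 were called by edgeR's quasi-likelihood test in either direction, and 1, Bcl2l11, had an unadjusted p under 0.05, in the higher direction, as did 3.26% of all tested genes in that direction and 3.32% in the lower one. Of the 9, 1, the BH3-only gene Bcl2l11, had a scaled CPM higher in every depolarized library than in every polarized one, as did 4.59% of all tested genes. Pmaip1, also a BH3-only gene, did so too, but it chose the family. Of the other BCL2 relatives described below, 2 of 8 tested genes (Bcl2l12 and Bnip3) likewise lay wholly higher. Of the 10 members 0 lay wholly lower, as 4.54% of all tested genes did. The median log2 fold change of the 10 was 0.40, beside 0.00 over all tested genes, and within pairs A, B and C it was 0.36, 0.27 and 0.38. These medians include Pmaip1, which chose the family, so no shift of the family is read from them. Ordered by fitted value, the middle one of the 9 others was Bax, at 0.31. Of the 9 members other than Pmaip1, 6 were fitted above 0, beside 49.6% of all tested genes, and 3 of these 6 are the near-identical A1 genes.

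**Figure D1:**
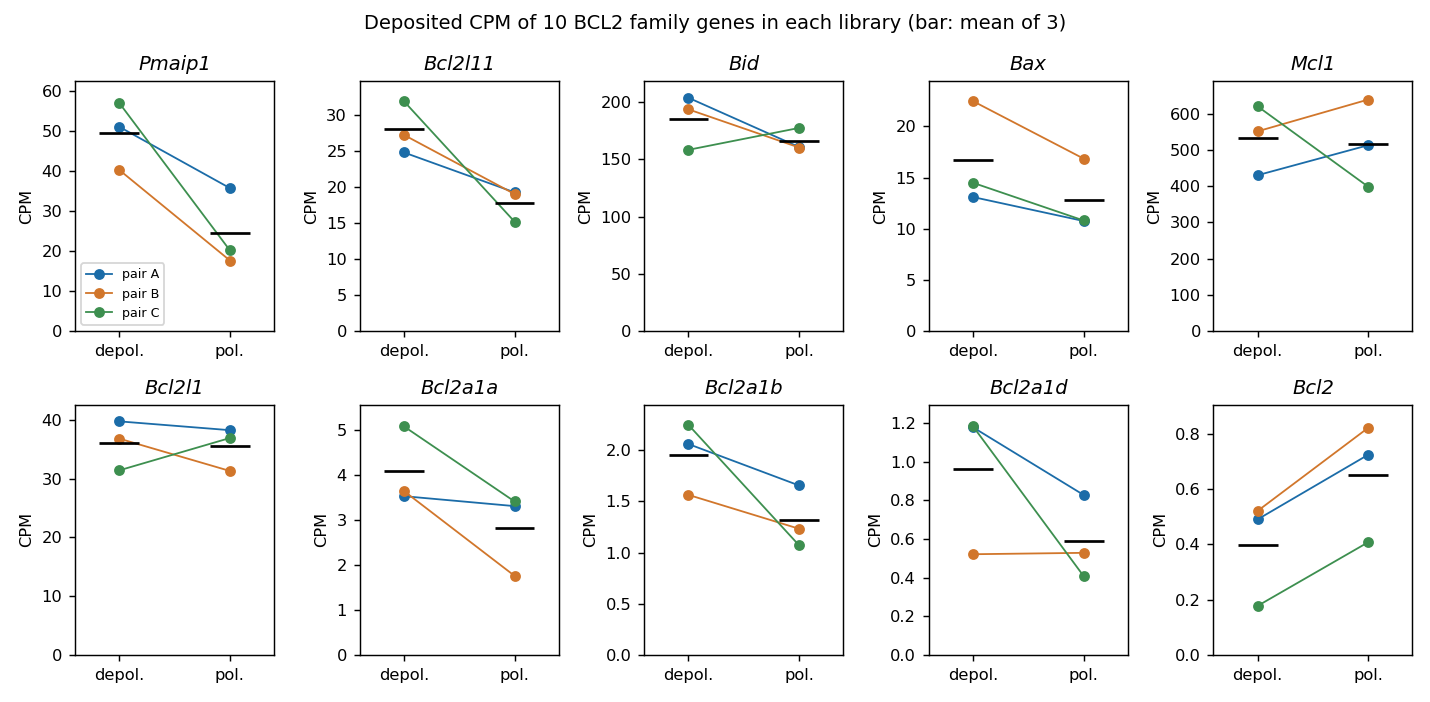
Deposited CPM of the 10 genes, depolarized libraries on the left and polarized on the right of each panel, with lines joining the libraries of a pair and black bars at the group means. Pmaip1 and Bcl2l11 slope down to the polarized side in all 3 pairs, while the lines of Mcl1, Bid and Bcl2l1 cross.

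Per gene length, Mcl1 was the most abundant of the family, with a mean of 151 ± 28.1 RPKM, which is CPM per kilobase of gene length (SD over the 6 libraries). Bid followed at 49.5 ± 5.45 RPKM, and Mcl1 lay above Bid in 6 of 6 libraries. Bax averaged 17 ± 5.10 RPKM and Pmaip1 14 ± 6.02 RPKM, and their order was not settled, since Bax was the higher in 3 of 6 libraries. Pmaip1 lay above Bcl2l1, at 7.79 ± 0.776 RPKM, in 4 of 6 libraries. Below these came Bcl2a1a at 4.22 ± 1.29 RPKM and Bcl2l11 at 2.85 ± 0.769 RPKM, with Bcl2a1a the higher in 5 of 6. Bcl2a1b (2.01 RPKM), Bcl2a1d (0.897 RPKM) and Bcl2 (0.0572 RPKM) closed the order, each below the gene before it in all 6 libraries. Levels of the A1 genes carry the uncertainty of near-identical copies described below. The order also depends on the listed gene lengths, by which RPKM divides. These were 8029 bases for Bcl2l11, 4586 for Bcl2l1 and 869 for Bax, beside 5036, 2568 and 1100 in their longest GENCODE M21 transcripts. The order under other lengths was not tested, so that of genes with close levels is not settled.

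Pmaip1 (ENSMUSG00000024521, chr18:66458604-66465550, plus strand, GRCm38) is the member that chose the family. Its deposited level was 51.1, 40.3 and 57.0 CPM in depolarized libraries A, B and C and 35.8, 17.7 and 20.2 CPM in polarized libraries A, B and C. The lowest depolarized library, B, was above the highest polarized library, A, and within the polarized group library A stood above the other two. The means were 49.5 ± 8.48 CPM in depolarized and 24.5 ± 9.80 CPM in polarized cells (SD, n = 3 each). The fitted log2 fold change was 1.0 (SE 0.20), a 2.00-fold difference resting on 2778 and 1388 counts. The pair differences, scaled with TMM factors, were 0.58, 1.15 and 1.27 in pairs A, B and C. The difference in pair A was thus smaller than in the other pairs. Under 10 other settings the fitted value lay between 0.85 without pair C and 1.21 without pair A. The call used to select the family was not made under 4 of them: the fit without the pairs as a block, a stricter filter, leaving out pair B and removal of the trend on gene length. All windows of 50 bases in its transcript were found in no other gene of GENCODE M21.

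Bcl2l11 (chr2:128126038-128162547, plus strand) encodes BIM, a BH3-only protein that binds all the anti-apoptotic members and can activate BAX. Its level was 24.8, 27.2 and 31.9 CPM in depolarized libraries A, B and C and 19.3, 19.0 and 15.2 CPM in polarized libraries A, B and C. The groups did not overlap, and pair C held both the highest depolarized and the lowest polarized value. The means were 28.0 ± 3.61 CPM in depolarized and 17.8 ± 2.28 CPM in polarized cells (SD, n = 3 each). The log2 fold change was 0.58 (SE 0.20) and had a 95% interval of 0.16 to 1.0, or 1.5-fold, on 1566 and 994 counts. Bcl2l11 did not pass edgeR's quasi-likelihood test across all genes (unadjusted p 0.00964, adjusted p 0.426). The difference was above 0 in 3 of 3 pairs, at 0.43, 0.48 and 0.84 on the log2 scale in A, B and C. Over the alternatives its adjusted p ran from 0.055 without pair C to 1 without pair B, so it was not called under any of them.

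Bid (chr6:120891930-120916853, minus strand), a BH3-only gene whose protein is cut by caspase-8 and so links death receptors to mitochondria, gave no such separation. Its level was 203.7, 193.6 and 158.3 CPM in depolarized libraries A, B and C and 160.7, 160.3 and 177.4 CPM in polarized libraries A, B and C. Depolarized cells had the higher value in pairs A and B and the lower one in pair C, and the groups overlapped. The means were 185 ± 23.8 CPM in depolarized and 166 ± 9.74 CPM in polarized cells (SD, n = 3 each). The log2 fold change was 0.08 with a 95% interval of -0.32 to 0.49 and an adjusted p of 1 by edgeR's quasi-likelihood test. Pair C decided the result: without it Bid was fitted at 0.32 and called (edgeR adjusted p 0.0467), in a fit that called 4.95% of all tested genes higher, and without pair A it was fitted at -0.08. Bcl2l13 overlaps 17.7% of the exon length of Bid on the opposite strand, with 754 counts in all against 19857, and no source used here gives the strand setting of the count.

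Bax (chr7:45461695-45466898, minus strand), the gene of the pore-forming effector, stood at 13.1, 22.5 and 14.5 CPM in depolarized libraries A, B and C. In polarized libraries A, B and C it stood at 10.8, 16.9 and 10.8 CPM. Both libraries of pair B were high, so the groups overlapped although the depolarized library was the higher in all 3 pairs. The means were 16.7 ± 5.05 CPM in depolarized and 12.8 ± 3.50 CPM in polarized cells (SD, n = 3 each). Its log2 fold change was 0.31 (SE 0.21), on 943 and 707 counts, and edgeR's quasi-likelihood test did not call it (adjusted p 0.966). The other effector gene, Bak1, is not among the 10 and averaged 2.14 ± 0.821 RPKM in depolarized and 1.64 ± 0.620 RPKM in polarized cells (SD, n = 3 each), with no call.

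**Figure D2:**
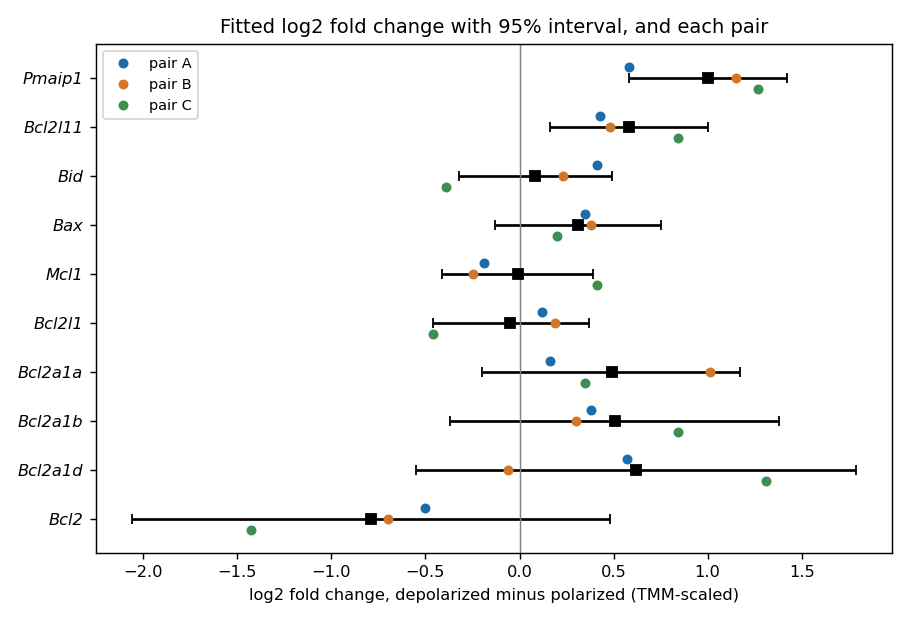
Log2 fold change, depolarized minus polarized, of the 10 genes as fitted (squares, with 95% intervals) and within each pair (points, scaled with TMM factors). The interval of Bcl2l11 runs from 0.16 to 1.0, that of Mcl1 spans 0, and the widest interval is that of Bcl2, with 59 counts in all. Pmaip1 chose the family through this same fit, so nothing is read from where its interval lies.

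Mcl1 (chr3:95658721-95663176, plus strand), the anti-apoptotic gene with the highest level here, did not separate the groups. Its level was 430.1, 551.1 and 620.0 CPM in depolarized libraries A, B and C and 512.8, 638.7 and 398.3 CPM in polarized libraries A, B and C. Depolarized cells had the lower value in pairs A and B and the higher one in pair C. The means were 534 ± 96.1 CPM in depolarized and 517 ± 120.2 CPM in polarized cells (SD, n = 3 each). The fitted log2 fold change was -0.01 with a 95% interval of -0.41 to 0.39, a fold of 0.992 with bounds of 0.753 and 1.31, and edgeR's quasi-likelihood test gave an adjusted p of 1. The interval does not exclude a difference in Mcl1 mRNA within those bounds, and the bounds are not a limit of detection. Its direction is not settled, since it was fitted at 0.08 without pair A and 0.11 without pair B.

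Bcl2l1 (chr2:152780668-152831728, minus strand), the gene of BCL-XL, likewise overlapped between groups. Its level was 39.7, 36.8 and 31.4 CPM in depolarized libraries A, B and C and 38.2, 31.3 and 36.9 CPM in polarized libraries A, B and C. Pairs A and B had the higher value in depolarized cells and pair C the lower one. The log2 fold change was -0.05 with a 95% interval of -0.46 to 0.37 and an edgeR adjusted p of 1, and it was 0.16 without pair C.

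Bcl2 (chr1:106538178-106714274, minus strand), the founding gene of the family, was close to the limit of detection. It had 10, 10 and 3 counts in depolarized libraries A, B and C and 14, 14 and 8 counts in polarized libraries A, B and C, and 3 counts is the detection floor per library used here. The depolarized library was the lower in all 3 pairs, but the groups overlapped. Its log2 fold change of -0.79 had a 95% interval of -2.06 to 0.48, and edgeR's quasi-likelihood test gave an adjusted p of 1. It rests on 23 and 36 counts in all.

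Mouse A1 is encoded by several copies on chromosome 9 that are nearly the same in sequence, and 3 of them are members. Over 516 coding bases Bcl2a1a and Bcl2a1b differ at 11 positions (97.9% identical), Bcl2a1a and Bcl2a1d at 7 (98.6%), and Bcl2a1b and Bcl2a1d at 6 (98.8%). The first 100 coding bases are shown, from the GENCODE M21 transcripts in GRCm38, because they hold 7 of the 12 coding positions at which the 3 copies are not all alike. Those positions are in capitals, and each sequence reads 5′ to 3′ from the start codon. They lie at chr9:88957051-88957150 on the plus strand for Bcl2a1a, chr9:89199360-89199459 on the plus strand for Bcl2a1b and chr9:88731620-88731719 on the minus strand for Bcl2a1d.
Bcl2a1a: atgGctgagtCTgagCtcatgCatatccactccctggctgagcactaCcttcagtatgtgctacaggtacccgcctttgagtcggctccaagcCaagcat
Bcl2a1b: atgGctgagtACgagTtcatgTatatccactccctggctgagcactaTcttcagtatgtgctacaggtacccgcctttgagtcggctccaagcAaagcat
Bcl2a1d: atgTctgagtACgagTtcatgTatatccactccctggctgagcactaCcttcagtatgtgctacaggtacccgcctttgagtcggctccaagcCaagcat

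These lines hold stretches with no difference between the copies, and a read short enough to lie wholly within one cannot be assigned to a copy. Of all windows of 50 bases along each transcript, 31.0% of those of Bcl2a1a, 20.8% of those of Bcl2a1b and 20.5% of those of Bcl2a1d were found in no other gene. With windows of 100 bases the shares were 56.5%, 43.2% and 45.3%. The corresponding shares were 100% for Pmaip1, Mcl1 and Bcl2l1 at both lengths, and 99.8% of 50-base windows for Bcl2l11. They were lower for Bid (75.5% of 50-base windows), Bax (86.2%) and Bcl2 (93.3%). A window also counted as shared where another gene overlaps the same place on either strand. Bcl2l13 overlaps exons of Bid, and D630008O14Rik those of Bcl2, on the opposite strand. The shares of Bid and Bcl2 therefore do not show that these genes have near-identical copies. No source used here gives the read length or the handling of reads with several matches, so the counts of the A1 genes, and how they divide between copies, are uncertain. Bcl2a1b also shares 49.1% of its exon length, on the same strand, with Gm29094, which was listed at 0 counts.

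**Figure D3:**
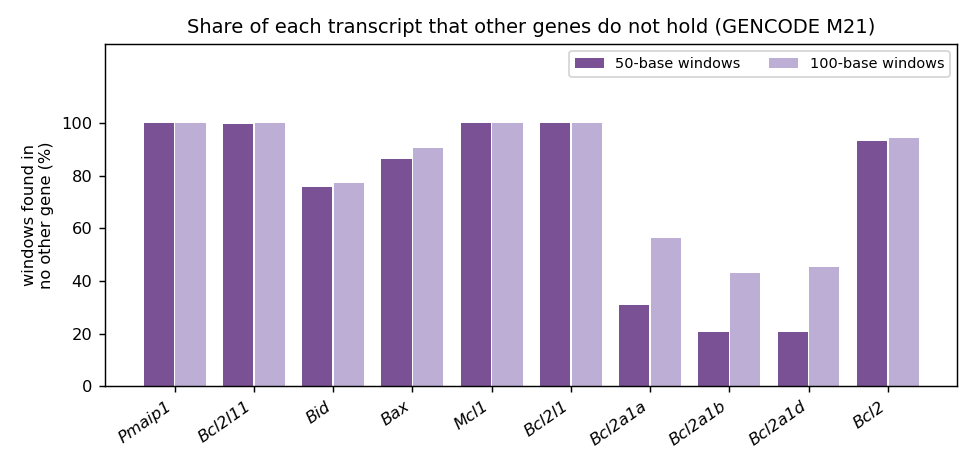
Percent of the windows of 50 bases (dark) and 100 bases (light) along 1 transcript of each gene that occur in no other gene of GENCODE M21, on either strand. The A1 genes lie between 20.5% and 56.5%, and Pmaip1, Mcl1 and Bcl2l1 at 100%.

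Bcl2a1a had 72, 70 and 86 counts in depolarized libraries A, B and C and 64, 30 and 67 counts in polarized libraries A, B and C. Every depolarized count was above every polarized one, with polarized library B far below the rest, as was also true of CPM, but the groups overlapped once CPM were scaled further with TMM factors. Its log2 fold change was 0.49 (SE 0.32, edgeR adjusted p 0.962). Bcl2a1b had 42, 30 and 38 counts in depolarized libraries and 32, 21 and 21 counts in polarized libraries A, B and C, with a log2 fold change of 0.51 (SE 0.41, edgeR adjusted p 1). Bcl2a1d had 24, 10 and 20 counts in depolarized libraries and 16, 9 and 8 counts in polarized libraries A, B and C, with a log2 fold change of 0.62 (SE 0.55, edgeR adjusted p 1). The libraries of pair B were the lowest or next to lowest for each copy within their group.

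Summing the copies avoids the question of which copy a read came from, though not that of reads dropped for matching several. The 3 genes together had 138, 110 and 144 counts in depolarized libraries A, B and C and 112, 60 and 96 counts in polarized libraries A, B and C. Depolarized library B lay below polarized library A, and the other depolarized libraries above all polarized ones. With the copy Bcl2a1c added (8 counts over depolarized and 4 over polarized libraries), the summed row had a log2 fold change of 0.51 and was not called by edgeR's quasi-likelihood test (adjusted p 0.836). Bcl2a1a took 50% to 69.8% of the counts of the 3 genes.

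The balance of the 2 arms was then described per library as the summed RPKM of Pmaip1, Bcl2l11, Bid and Bax over that of the 6 anti-apoptotic genes. This ratio was 0.676, 0.572 and 0.445 in depolarized libraries A, B and C and 0.453, 0.378 and 0.560 in polarized libraries A, B and C. It was higher in depolarized cells in pairs A and B and lower in pair C, and the groups overlapped. On the log2 scale the pair differences were 0.58, 0.59 and -0.33, with a mean of 0.28 and an SD of 0.53, so the mean was smaller than the spread between pairs. Its numerator alone was 94.8, 99.0 and 86.8 RPKM in depolarized libraries A, B and C and 73.6, 73.6 and 71.9 RPKM in polarized libraries A, B and C, without overlap. Without Pmaip1, which the choice of genes used, it was 75.5, 83.8 and 65.2 RPKM in depolarized libraries and 60.1, 66.9 and 64.3 RPKM in polarized libraries, and the groups overlapped. Its denominator was 140, 173 and 195 RPKM in depolarized libraries and 163, 194 and 128 RPKM in polarized libraries, and it crossed between pairs as Mcl1 did. Mcl1 supplied 87.9% to 94.2% of that denominator in every library, and Bid 51.4% to 69.5% of the numerator. Pmaip1 supplied 20.4%, 15.4% and 24.8% of the numerator in depolarized libraries A, B and C and 18.4%, 9.08% and 10.6% in polarized libraries A, B and C. Without Mcl1 the mean log2 difference of the ratio was 0.07, and without Pmaip1 it was 0.15.

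Single ratios to Mcl1 set each death gene against the most abundant survival gene of the same library. The ratio of Pmaip1 to Mcl1 was 0.156, 0.0963 and 0.121 in depolarized libraries A, B and C and 0.0918, 0.0364 and 0.0668 in polarized libraries A, B and C. The groups did not overlap, although depolarized library B was close to polarized library A. Within pairs it differed by 0.77, 1.4 and 0.86 as log2, which averaged 1.01 with an SD of 0.34, and this difference holds that of Pmaip1 itself, which the choice of genes used. The ratio of Bcl2l11 to Mcl1 was 0.0250, 0.0214 and 0.0223 in depolarized libraries and 0.0163, 0.0129 and 0.0166 in polarized libraries A, B and C, without overlap. Its pair differences were 0.62, 0.73 and 0.43 on the log2 scale, with a mean of 0.59 and an SD of 0.15. The ratio of Bid to Mcl1 differed by 0.60 and 0.48 in pairs A and B and by -0.80 in pair C, and that of Bax to Mcl1 by 0.54, 0.63 and -0.22. Against Bcl2l1, the ratio of Pmaip1 was 2.23, 1.90 and 3.15 in depolarized libraries and 1.62, 0.979 and 0.948 in polarized libraries A, B and C, also without overlap. This difference, too, holds that of Pmaip1 itself. The ratio of Bcl2l11 to Bcl2l1 did not overlap either, at 0.356 in the lowest depolarized and 0.347 in the highest polarized library. Its pair differences were 0.31, 0.28 and 1.3 as log2, with a mean of 0.63 and an SD of 0.58.

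**Figure D4:**
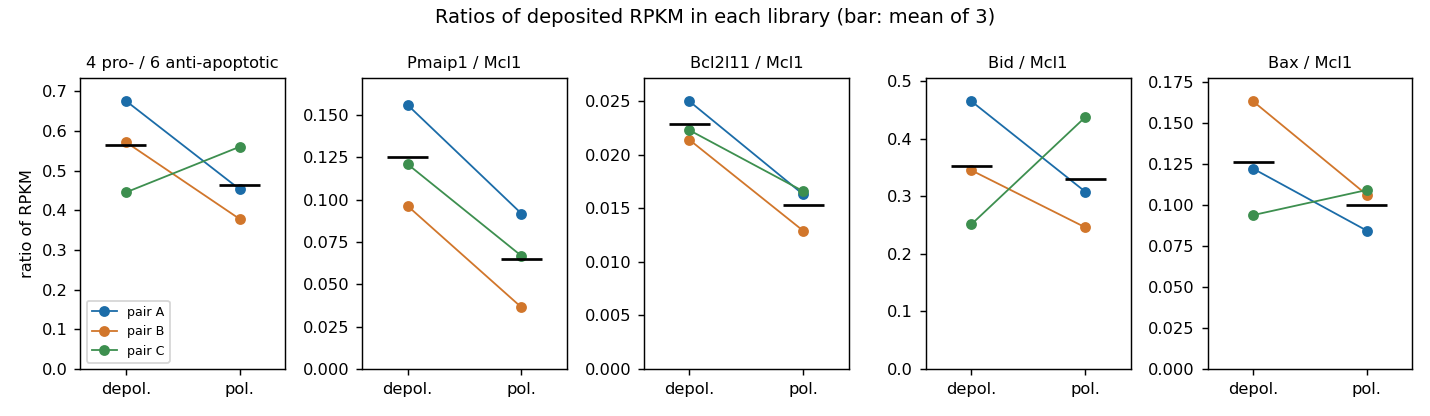
Ratios of deposited RPKM in each library, depolarized on the left and polarized on the right, with lines joining the libraries of a pair and black bars at the group means. The ratios of Pmaip1 and of Bcl2l11 to Mcl1 fall towards the polarized side in all 3 pairs, whereas pair C crosses the others in the summed ratio and in those of Bid and Bax.

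The rest of the pathway was read from 6 further lists of 58 genes, of which 44 were tested and 0 were called in either direction, beside the 0.0802% and 0.241% of all tested genes. Of the other BCL2 relatives 8 of 16 were tested, with a median log2 fold change of 0.00. Bcl2l12, an atypical relative, had 16, 12 and 11 counts in depolarized libraries and 6, 1 and 7 counts in polarized libraries A, B and C, a log2 fold change of 1.48 (SE 0.68, edgeR adjusted p 0.733). Its exons are overlapped on the opposite strand by Irf3 and Gm15545, so its value is uncertain. Bnip3, a mitophagy receptor gene, was at 64.0, 73.8 and 65.1 CPM in depolarized libraries and 52.8, 43.6 and 55.0 CPM in polarized libraries A, B and C, a log2 fold change of 0.36 (edgeR adjusted p 0.846). Only 37.6% of its 50-base windows occur in no other gene. Its relative Bnip3l was fitted at -0.10 and Bcl2l13, a further mitophagy receptor gene, at -0.36. Bik, a BH3-only gene, had 0 counts in every library.

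Transcription factors known to act on BH3-only genes or on Mcl1 had a median log2 fold change of 0.01 over 12 tested of 14. Atf3, a stress-induced factor reported in human cells to act at the NOXA gene, had the largest difference among them. It was at 24.1, 19.2 and 24.3 CPM in depolarized libraries A, B and C and 14.4, 10.9 and 11.1 CPM in polarized libraries A, B and C, without overlap. Its log2 fold change was 0.83 (SE 0.20), above 0 in 3 of 3 pairs (0.80, 0.78 and 0.91), and edgeR's quasi-likelihood test across all genes did not call it (unadjusted p 0.000794, adjusted p 0.133). The stress factor genes Ddit3 (CHOP) and Atf4 were fitted at 0.15 and -0.12, and Rela, an NF-kB subunit gene, at 0.10.

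Genes that set MCL1 turnover had a median of -0.01 over 6 tested of 7. The ubiquitin ligase genes Huwe1 (MULE) and Fbxw7 were fitted at 0.45 and -0.23, the deubiquitinase gene Usp9x at 0.09, and the kinase genes Gsk3b and Gsk3a, whose products mark MCL1 for degradation, at 0.01 and -0.04. Downstream of the mitochondria, the apoptosome, caspase and released-protein list had a median of 0.06 over 9 tested of 10. Casp9, the initiator caspase of the apoptosome, was at 41.4, 43.8 and 43.8 CPM in depolarized libraries and 32.9, 29.1 and 25.3 CPM in polarized libraries A, B and C. The groups did not overlap, and its log2 fold change of 0.50 (SE 0.18) did not pass edgeR's quasi-likelihood test (adjusted p 0.499). Among 3 caspase inhibitor genes, with a median of 0.06, Birc3 (cIAP2) was at 67.3, 63.3 and 76.6 CPM in depolarized libraries and 52.9, 49.0 and 52.8 CPM in polarized libraries A, B and C, a log2 fold change of 0.35 (edgeR adjusted p 0.787). Xiap and Birc2 were fitted at -0.10 and 0.06. In the death receptor pathway the median was -0.03 over 6 tested of 8. Cflar, the gene of the caspase-8 inhibitor FLIP, was fitted at -0.25, the receptor genes Tnfrsf1a and Fas at 0.15 and -0.01, and the kinase gene Ripk1 at -0.13. Separation of the groups went both ways among the 44 tested genes of the 6 lists, by CPM scaled with TMM factors. Bcl2l12, Bnip3, Atf3 and Casp9 lay wholly higher in depolarized libraries, and Fbxw7, Aifm1 (of the apoptosome list) and Cflar wholly lower. Over all tested genes 4.59% lay wholly higher and 4.54% wholly lower.

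**Figure D5:**
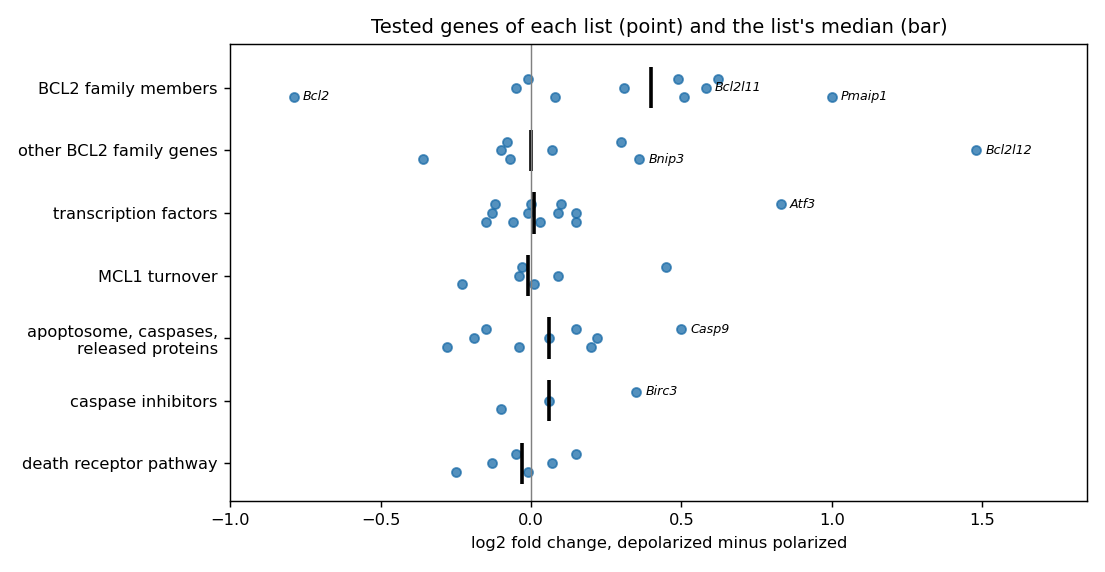
Fitted log2 fold change, depolarized minus polarized, of the tested genes of the family and of the 6 further lists (points), with the median of each list as a bar. The medians of the further lists lie between -0.03 and 0.06. That of the 10 members, at 0.40, holds Pmaip1, which chose the family, so it is not compared with them.

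The genes whose pattern over the 6 libraries was most like that of Pmaip1 were sought among 5146 tested genes with a mean log2 CPM of at least 3. Since Pmaip1 was picked for being higher in depolarized cells, genes near it are bound to be higher there too. Likeness was the root mean square distance between log2 scaled CPM values, each centred on the gene's own mean, for which the median gene was at 0.648. The nearest were Itga4 (0.178), the alpha-4 integrin gene, Il1rap (0.180), a subunit gene of the interleukin-1 receptor, and Cd244a (0.182), a SLAM family receptor gene. Tcf7l2 (0.204), a transcription factor gene of WNT signalling, and Arhgap5 (0.205), a GTPase-activating protein gene, came next. Like Pmaip1, Itga4 was highest in depolarized library C, at 67.6 CPM, and lowest in polarized library B, at 25.1 CPM. Atf3 was at 0.208 and Bcl2l11 at 0.382, and no link to Pmaip1 is read from these distances.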

How the data were processed

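For each of the 6 libraries the table gives counts, CPM and RPKM by gene. The deposited counts are unnormalized whole numbers. The deposited CPM are scaled to the library's total count and equal the values recomputed from the counts (largest difference 4.8e-10), and the deposited RPKM are those CPM per kilobase of listed gene length. Per the submitters' processing notes, the genome build was GRCm38 and the tools were STAR 2.0.4b, featureCounts 1.45, Subread and bcl2fastq. No source used here gives the strand setting, the handling of reads with several matches or the annotation release. No row without a gene was present, and symbols were found for 40254 of 41388 genes.

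Counts were tested with edgeR 4.0.16 in R 4.3.3 (filterByExpr by group, TMM, quasi-likelihood F test, Benjamini-Hochberg over all tested genes), with the pair as a block and fold changes as depolarized minus polarized. The filter left 9971 genes with 99.9% of the counts. Genes were called at an adjusted p under 0.05. Standard errors are approximate, the fold change over the square root of F. DESeq2 1.42.0 was an alternative. The script was tested on simulated data. Groups come from the response label. Pairing rests on the design text and the code shared by titles. Correlations of deviations from group means within a code were 0.0751, 0.27 and 0.0326 for A, B and C, so the values alone show little of it. Within a group, sampling noise did not account for the differences between libraries (chi-square per degree of freedom 29.1 to 100), and no source says whether they came from separate animals, beyond calling the pairs biological. The TMM factors shifted the pair differences by 0.06, -0.04 and -0.23 on the log2 scale in A, B and C. The 95% intervals come from the fit and hold the spread between libraries, while the floor of 3 counts covers counting error only.

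Members and lists were chosen with earlier results of these data known. The text names all members, in each further list up to 3 genes with the lowest p and the 2 with the highest mean RPKM, and the 5 genes nearest to Pmaip1. Bak1, Bik, Bcl2a1c and Aifm1 were chosen after their values were seen. Some genes that this rule names are not reported here. Windows and A1 sequences come from GENCODE M21 (GRCm38), and exon overlaps from the deposited gene coordinates. No protein sequence was used here.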

Additional observations from a re-analysis of the deposited data

How the results depend on the processing

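The number of called genes over the whole table depended strongly on the setting. Higher and lower calls, 8 and 24 with the replicate block, became 0 and 0 with no replicate block in edgeR (234 and 277 at an unadjusted p under 0.05), 16 and 23 in DESeq2 with the block, 50 and 96 with no filter, and 6 and 6 at a mean count of 100 or more. Removing the trend on gene length, an alternative chosen after seeing the data, gave 0 and 13 (230 and 448 at an unadjusted p under 0.05). Leaving out 1 pair gave 9 to 500 higher and 36 to 518 lower calls: 25 and 74 without pair A, 9 and 36 without B, 500 and 518 without C. Of the 9 members other than Pmaip1, 0 were called except without pair C, where 1 was, Bid (0.32), so the range over left-out pairs was 0 to 1. Of 83 values of these members under alternatives, 77 kept direction and side of the threshold, 1 gained a call and 5 turned: Bid to -0.08 without pair A and to -0.02 with the length trend removed, Mcl1 to 0.08 without pair A and 0.11 without pair B, and Bcl2l1 to 0.16 without pair C. Over the left-out pairs Mcl1 ran from -0.22 to 0.11 and Bcl2l1 from -0.17 to 0.16. The cause was not tested. The replicate block changed no call of these 9 members. The summed A1 genes lay between 0.43 and 0.65 and were not called under any alternative run. The mean log2 difference of the summed pro- to anti-apoptotic ratio, 0.28 with an SD of 0.53, was 0.13 without pair A, 0.12 without pair B, 0.59 without pair C and 0.07 without Mcl1. The stricter filter left Bcl2 and the single A1 genes without a value, as did some left-out pairs for Bcl2 and Bcl2a1d. Bcl2 and the single A1 genes rest on few counts, and whether depth or the spread between libraries limits them was not tested.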
